A study of Mus musculus with 6 samples.

Results

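The lysosomal genes described here were 41 genes for hydrolases, lysosomal membrane proteins, mannose 6-phosphate receptors, lysosomal transcription factors and the vacuolar proton pump (V-ATPase). They were chosen by name from a list that left out the cathepsins, and all 41 were found among the 24394 gene symbols of the deposited files. Bone marrow-derived macrophages (BMMs) were grown from the marrow of C57BL/6 mice at postnatal day 28, in medium with M-CSF (the growth factor that drives marrow cells to macrophages) at 50 ng/ml over 7 days. Of the 6 cultures sequenced, 3 were controls and 3 were kept for 24 h with cartilage fragments, at 5 fragments to each macrophage (stimulated macrophages). The fragments were crushed femoral head cartilage of the same mice, and both groups carried no genetic change and no other treatment. Neither the labels nor the methods say whether the 3 cultures of a group came from different mice, so the tests measure the spread between these libraries, which may be technical.

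Lysosomes digest what a macrophage takes up. Most hydrolases are tagged with mannose 6-phosphate in the Golgi, carried to the lysosome by the receptors encoded by M6pr and Igf2r, and work there at the low pH that the V-ATPase maintains. The pump has a membrane sector, V0, through which protons pass, and a cytosolic sector, V1, which hydrolyses ATP. Tfeb and Tfe3 encode related transcription factors that bind the letters CACGTG, often as part of a longer palindrome, in front of many lysosomal genes.

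The stretches before the start of 6 members, taken from RefSeq on build GRCm38.p6, are shown because each holds that motif and because together they cover a hydrolase, membrane proteins, a receptor and both sectors of the pump. They are written 5′ to 3′ on the strand of the gene, with every CACGTG in capitals.
Gla: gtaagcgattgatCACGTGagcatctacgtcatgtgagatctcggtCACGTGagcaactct
Lamp1: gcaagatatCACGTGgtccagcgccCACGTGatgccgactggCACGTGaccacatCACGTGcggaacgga
Mcoln1: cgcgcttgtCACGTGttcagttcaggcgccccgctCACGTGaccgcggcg
Igf2r: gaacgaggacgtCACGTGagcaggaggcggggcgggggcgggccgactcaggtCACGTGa
Atp6v0b: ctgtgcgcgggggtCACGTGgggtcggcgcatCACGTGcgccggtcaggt
Atp6v1a: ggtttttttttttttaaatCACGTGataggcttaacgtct

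These stretches lie at chrX:134601185-134601245 on the minus strand for Gla, chr8:13159091-13159160 on the plus strand for Lamp1 and chr8:3500439-3500488 on the plus strand for Mcoln1. The others, all on the minus strand, lie at chr17:12769707-12769766 for Igf2r, chr4:117887330-117887379 for Atp6v0b and chr16:44139370-44139409 for Atp6v1a. The letters CACGTG, which read the same on both strands, occurred in 13 of the 42 promoter windows found for 35 members (31%), against 7.15% of all 32851 windows of 300 bases in the table. The longer TCACGTGA, which contains CACGTG, was in 14.3% of the members' windows and in 0.974% of all windows. In front of Lamp1 the motif began at -61, -45, -28 and -15 from the start, the most copies in any member's window. The deposited files start Lamp1 26 bases earlier than RefSeq does. They start Atp6v1a later, at chr16:44139019, so its window, chr16:44139210-44139509, lies wholly before the transcript that was quantified. Windows were not in the table for Asah1, Galns, M6pr, Atp6v1b2, Atp6v1c1 and Atp6v1h. A match is a property of the sequence, and binding was not measured here.

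The deposited values are fragments scaled to transcript length and library depth (FPKM), listed by transcript. Depth, estimated from coverage, FPKM and read length since the files hold no read counts, was between 699192 and 776322 fragments per library. The methods state a far larger number of mapped reads per sample, and the files do not settle the difference. The values are given on 2 scales. The first is FPKM, summed over the transcripts of a gene, with those that Cufflinks assembled at the same gene without a name included. The second is estimated fragments, scaled to 1000000 in each library (FPM), which does not divide by transcript length. Macrophage markers were high in all 6 libraries, with a summed level of 39480 to 60570 FPKM in controls and 40840 to 54720 FPKM in stimulated macrophages over 8 of 8 markers. Most of that sum was Lyz2, at 36740 to 57950 FPKM, while Fcgr1 stood at 5.13 to 12.7 FPKM. In scaled fragments, the second scale, Adgre1, Itgam and Cd14 were higher in stimulated macrophages, by 0.58, 0.26 and 0.64 on the log2 scale (limma adjusted p = 2.51e-11, 8.21e-05 and 4.08e-05), and Adgre1 and Cd14 also passed in FPKM. Of 10 listed chondrocyte markers 5 were at 0 in every library, Matn1, Matn3, Col9a1, Col9a2 and Hapln1, and the summed level was at most 4.22 FPKM, in a control. Lymphocyte markers were all at 0, and neutrophil markers summed to 733 to 839 FPKM in controls and 684 to 990 FPKM after stimulation. Most of the neutrophil sum was S100a8, at 250 to 454 FPKM, and S100a9, at 329 to 502 FPKM. Mpo and Elane reached at most 1.71 and 1.88 FPKM, each in a control, Camp reached at most 33.2 FPKM, and Ly6g was not listed. The summed level of 8 fibroblast and osteoblast markers was 160 to 173 FPKM in controls and 108 to 121 FPKM after stimulation, with Bglap at 0, and that of 5 osteoclast markers was 46.7 to 50.0 and 60.5 to 69.7 FPKM, with Calcr at 0. In scaled fragments Col1a1 and Col1a2 were lower, by -0.72 and -0.41 on the log2 scale (limma adjusted p = 9.81e-07 and 0.00254), and Acp5 was higher by 0.75 (limma adjusted p = 0.0407). The higher osteoclast sum lay in Acp5 alone, at a mean of 26.7 FPKM in controls and 47.3 FPKM after stimulation. Ctsk went the other way, from 20.6 to 16.3 FPKM, and Dcstamp and Ocstamp reached at most 3.03 and 0.80 FPKM. The part of these cells in the differences below was not tested, and in bulk RNA fewer cells of a type and less RNA per cell cannot be told apart. The methods name male mice for the cartilage, and state that the marrow came from the same animals, but Xist stood at 19.8 to 23.6 FPKM in all 6 libraries and Ddx3y, Eif2s3y, Kdm5d and Uty were at 0.

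The levels of the lysosomal genes ran from Psap and Gpnmb, which ranked 6 and 8 among all genes by mean FPKM, to Ids at rank 5035 and Arsb at rank 8289. Most had slightly lower values after exposure to cartilage fragments, and few passed the test. Together the 41 genes held 5.50, 5.53 and 5.51% of the fragments in the control libraries and 4.92, 4.97 and 5.12% in the stimulated ones. All 3 stimulated libraries lay below all 3 controls. Psap and Gpnmb alone held 73.8% ± 0.371 (SD, n = 3) of the members' fragments in controls and 72.4% ± 0.813 in stimulated macrophages. Without these genes the share was 1.44% ± 0.0165 in controls and 1.38% ± 0.0137 in stimulated macrophages (n = 3 each), again without overlap. No test was run on these sums.

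Of the 40 members tested, 30 were lower and 10 higher in FPKM, with a median log2 fold change of -0.05, against 0.00 over all 10398 tested genes. No member passed an adjusted p of 0.05 in FPKM (limma, Benjamini-Hochberg adjusted over all tested genes), where 0.394% of all tested genes did, and 6 members had an unadjusted p under 0.05, against 9.35% of all tested genes. In scaled fragments 3 members passed, Gpnmb, Lgmn and Man2b1, all lower in stimulated macrophages, against 2.73% of all tested genes called in either direction and 1.0% called lower. Abundant genes were called more often: among the 1208 genes with at least 100 fragments per library, which include 25 members and all 3 that were called, 12.5% were called and 6.04% were called lower. The members' count was near the share called in either direction. All 3 were lower, and their count was not tested against either share. The groups did not overlap for 6 members on either scale, 2 above and 4 below in FPKM and 1 above and 5 below in scaled fragments. Over all tested genes 15.9% had no overlap in FPKM, 9.03% above and 6.88% below, and 16.6% had none in scaled fragments, 9.16% above and 7.44% below. Among the genes with at least 100 fragments the share was 32.4% in scaled fragments.

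**Figure D1:**
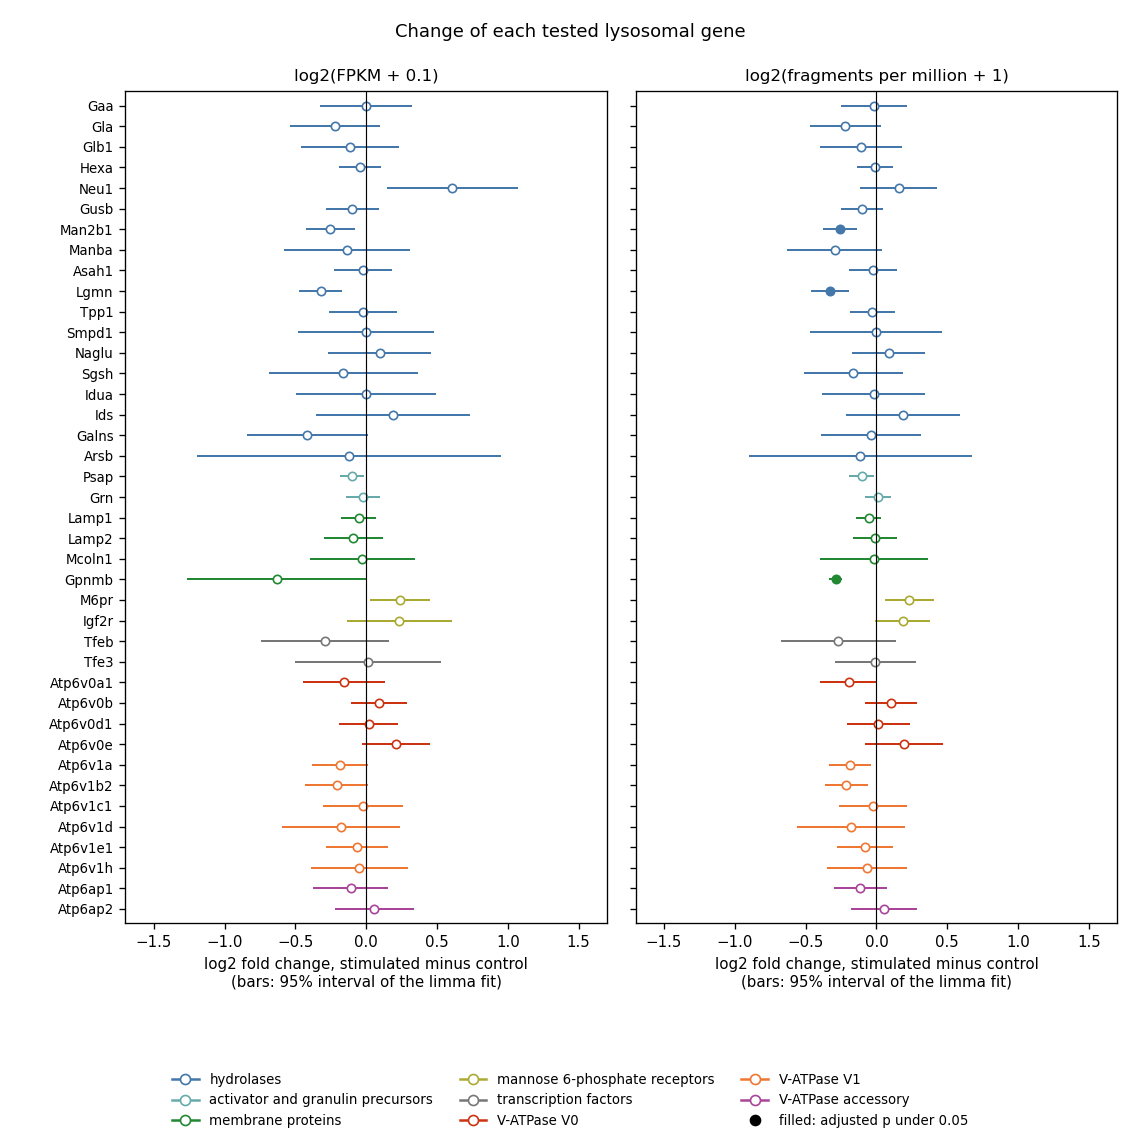
Log2 fold change of each of the 40 tested lysosomal genes, stimulated minus control, on the FPKM scale (left) and on the scale of scaled fragments (right), with the 95% interval of the limma fit and colours for the role of the gene. Filled circles mark an adjusted p under 0.05, which only Man2b1, Lgmn and Gpnmb reached, on the right.

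Among the 18 hydrolases, 15 were lower and 3 higher on both scales, with a median log2 fold change of -0.07 in FPKM and -0.03 in scaled fragments. The group as a whole held 0.551% ± 0.00805 (SD, n = 3) of the fragments in controls and 0.508% ± 0.00231 in stimulated macrophages, and the libraries of both groups did not overlap. Lgmn and Man2b1 passed the test in scaled fragments, and no hydrolase did in FPKM.

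Lgmn encodes legumain, the asparaginyl endopeptidase that also processes other lysosomal proteases, and lies at chr12:102394098-102439697 (mm10). Its level was 432, 440 and 473 FPKM in controls and 364, 365 and 348 FPKM in stimulated macrophages. In FPM it was 764, 778 and 836 against 639, 643 and 613. Every stimulated library was below every control on both scales. The log2 fold change was -0.33 ± 0.06 (SE, n = 3 per group) in scaled fragments, with a limma adjusted p of 0.000641, and -0.32 ± 0.06 in FPKM, with a limma adjusted p of 0.112. With the reference transcript alone, which leaves out an unnamed transcript assembled in controls 1 and 2, it was -0.07.

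Man2b1 encodes lysosomal alpha-mannosidase, which trims mannose from glycoproteins, and lies at chr8:85083269-85098739. Its level was 232, 242 and 239 FPKM in controls and 192, 196 and 209 FPKM after stimulation, or 1012, 1052 and 1045 against 835, 855 and 913 FPM. The groups did not overlap on either scale. The log2 fold change was -0.26 ± 0.05 (SE, n = 3 per group) in scaled fragments, with a limma adjusted p of 0.0031, and -0.25 ± 0.07 in FPKM, with a limma adjusted p of 0.271. Without stimulated replicate 1 it was -0.23 in scaled fragments and the limma adjusted p was 0.0563, over the threshold.

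Neu1 encodes the lysosomal sialidase and had the highest FPKM difference of the hydrolases. It stood at 36.7, 30.8 and 31.8 FPKM in controls and at 65.9, 39.5 and 49.2 FPKM in stimulated macrophages, without overlap, a log2 fold change of 0.61 ± 0.20 (SE, n = 3 per group; limma adjusted p = 0.379). In FPM it was 142, 119 and 118 against 144, 152 and 125, and here the groups overlapped, with a log2 fold change of 0.16 (95% interval -0.11 to 0.42). The difference between the scales came with unnamed transcripts of 1012 and 1025 bases, listed at 36.4 FPKM in stimulated replicate 1 and 21.5 FPKM in stimulated replicate 3 beside the reference transcript of 3850 bases. On the reference transcript alone the log2 fold change was 0.06.

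Galns encodes the sulfatase that acts on keratan sulfate and chondroitin 6-sulfate, both glycosaminoglycans of cartilage. Its level was 47.4, 37.8 and 33.7 FPKM in controls and 25.4, 29.5 and 34.0 FPKM after stimulation, a log2 fold change of -0.42 (limma adjusted p = 0.542). The scales differed here as well, since in scaled fragments the log2 fold change was -0.04 and on the reference transcripts alone 0.39. For the other enzymes of glycosaminoglycan breakdown, Glb1, Hexa, Gusb, Naglu, Sgsh, Idua, Ids and Arsb, the log2 fold change in scaled fragments ran from -0.16 (Sgsh) to 0.19 (Ids), and none passed the test. The 95% interval was widest for Arsb, -0.90 to 0.67, which had the lowest level of the listed members that were detected, 3.62 FPKM.

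Hexa, the alpha subunit of beta-hexosaminidase, was the most abundant hydrolase. It stood at 532, 509 and 510 FPKM in controls and 512, 523 and 473 FPKM in stimulated macrophages, overlapping groups with a log2 fold change of -0.04 (95% interval -0.18 to 0.10). Gaa, which breaks down glycogen, stood at 59.5, 49.4 and 47.5 FPKM in controls and 50.8, 48.5 and 56.5 FPKM in stimulated macrophages. Its log2 fold change was -0.002 with a 95% interval of -0.32 to 0.32. The listed transcripts of Gaa had log2 fold changes of opposite sign, and neither passed the test. The one of 3756 bases stood at 37.4, 29.1 and 29.6 FPKM in controls and 43.5, 48.5 and 47.8 FPKM after stimulation (log2 fold change 0.55, limma adjusted p = 0.558). The one of 3666 bases stood at 22.2, 20.3 and 18.0 FPKM in controls and at 7.33, 0 and 0 FPKM after stimulation (limma adjusted p = 0.792). The remaining hydrolases, Gla, Manba, Asah1, Tpp1 and Smpd1, had log2 fold changes from -0.22 (Gla) to -0.001 (Smpd1) in FPKM, with overlapping groups and none past the threshold. In scaled fragments they ran from -0.30 (Manba, 95% interval -0.63 to 0.03) to -0.005 (Smpd1), again with overlap and none past the threshold.

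The 2 soluble precursors were far more abundant. Psap encodes prosaposin, the precursor of the saposins that present sphingolipids to hydrolases, with the highest level of the members. It stood at 10270, 10470 and 10350 FPKM in controls and 9315, 9542 and 10150 FPKM in stimulated macrophages. All stimulated libraries were below all controls, with stimulated replicate 3 close to them. The log2 fold change was -0.10 ± 0.03 (SE, n = 3 per group) in FPKM, with a limma adjusted p of 0.393, and -0.11 ± 0.03 in scaled fragments, with a limma adjusted p of 0.28. Without stimulated replicate 3 the value in scaled fragments was -0.14 and passed the threshold (limma adjusted p = 1.8e-06), while without stimulated replicate 1 it was -0.08 and did not (limma adjusted p = 0.0932). Psap had 6 listed transcripts, and all of its FPKM lay on the one of 2567 bases in every library. Grn encodes progranulin, which is cut to granulins in the lysosome. It stood at 864, 894 and 831 FPKM in controls and 841, 868 and 841 FPKM after stimulation. Its groups overlapped, and the log2 fold change was -0.02 in FPKM (95% interval -0.13 to 0.09) and 0.01 in scaled fragments.

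Gpnmb encodes a glycoprotein of lysosomes and the cell surface that macrophages with a high lysosomal load express strongly, and lies at chr6:49036518-49058182. Its difference was the most precise of the members in scaled fragments and among the least precise in FPKM. In FPM it stood at 14690, 14910 and 14750 in controls and at 12050, 12130 and 12130 in stimulated macrophages. No stimulated library came near a control. The log2 fold change was -0.29 ± 0.02 (SE, n = 3 per group; limma adjusted p = 2.96e-14), or 0.818-fold, and it stayed between -0.29 and -0.28 when each library was left out in turn. On the log2 scale the spread between libraries of a group (SD 0.00857) was below the error that counting alone gives for 1 library (0.0149), and the counting error of the difference was 0.0122. Cufflinks gave the reference transcript of Gpnmb the status LOWDATA in every library but control replicate 1, so these values rest in part on flagged lines. In control replicate 1 no line of any gene had a status other than OK, against 770 to 795 lines in each other library.

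**Figure D2:**
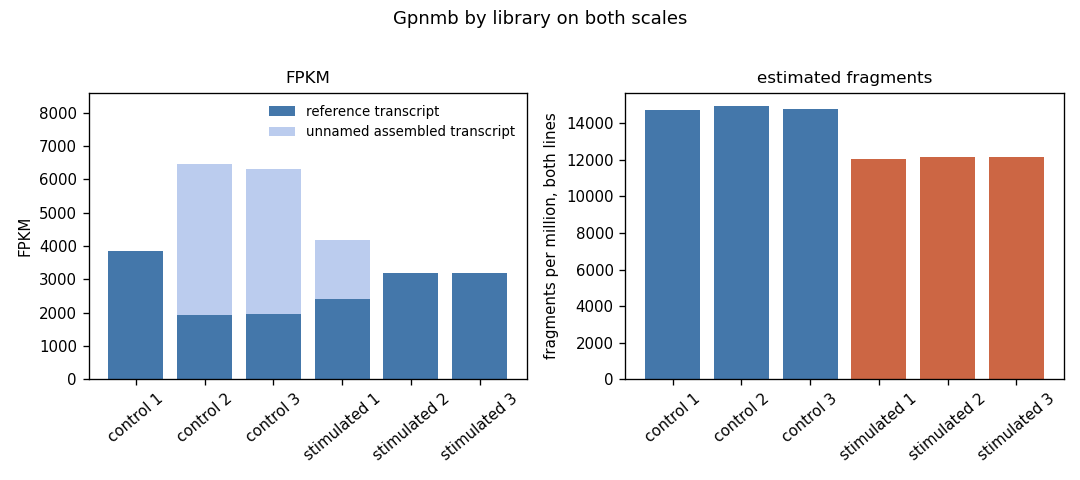
Gpnmb in each of the 6 libraries: FPKM of the reference transcript and of the unnamed assembled transcript, stacked (left), and scaled fragments over both (right). The unnamed transcript is listed in controls 2 and 3 and in stimulated replicate 1 only, and the fragments fall in 2 groups, 14690 to 14910 in controls and 12050 to 12130 after stimulation.

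In FPKM Gpnmb stood at 3861, 6473 and 6325 in controls and 4176, 3188 and 3188 in stimulated macrophages, a log2 fold change of -0.63 ± 0.24 (SE, n = 3 per group; limma adjusted p = 0.528). The groups overlapped, because control replicate 1 was below stimulated replicate 1. An unnamed transcript of 1770 to 1784 bases, beside the reference transcript of 3798 bases, took 4531 FPKM in control replicate 2, 4373 FPKM in control replicate 3 and 1754 FPKM in stimulated replicate 1, and was not listed in the other libraries. On the reference transcript alone the values were 3861, 1942 and 1952 FPKM in controls and 2422, 3188 and 3188 FPKM after stimulation, and the log2 fold change turned to 0.25. In the 3 libraries with the reference transcript only, control replicate 1 was above both stimulated replicates 2 and 3.

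The other lysosomal membrane proteins did not pass the test on either scale. Lamp1, a heavily glycosylated protein that lines the lysosome, stood at 1035, 1085 and 985 FPKM in controls and 1018, 986 and 990 FPKM in stimulated macrophages. The groups overlapped, with a log2 fold change of -0.05 (95% interval -0.17 to 0.06), beside the 4 motif copies shown above. Mcoln1, a lysosomal calcium channel, stood at 37.1, 29.0 and 28.0 FPKM in controls and 30.7, 31.2 and 29.8 FPKM after stimulation, with a log2 fold change of -0.03 (95% interval -0.39 to 0.34). Lamp2 had a log2 fold change of -0.09 in FPKM and -0.01 in scaled fragments. Its transcript of 1788 bases held 69.6 to 83.1% of its FPKM, at 194, 187 and 219 FPKM in controls and 182, 190 and 148 FPKM after stimulation. The transcript of 3614 bases stood at 58.1, 48.8 and 44.5 FPKM in controls and at 61.7, 60.1 and 64.8 FPKM in stimulated macrophages, without overlap, and neither passed the test over 12723 transcripts (limma adjusted p = 0.809 and 0.805).

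**Figure D3:**
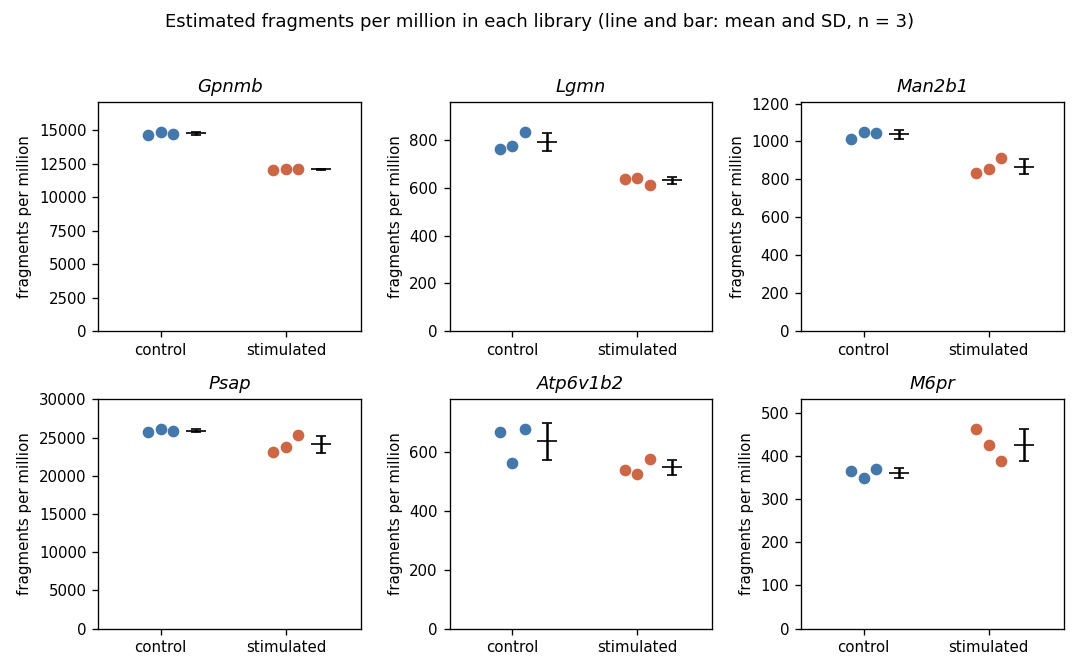
Scaled fragments (FPM) of 6 lysosomal genes, with 1 point per library on linear axes from 0 and the mean and SD of 3 libraries beside them. Gpnmb, Lgmn, Man2b1 and Psap were lower in all 3 stimulated libraries and M6pr was higher in all 3, while Atp6v1b2 overlapped through control replicate 2 at 564 FPM.

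Both mannose 6-phosphate receptors had higher values after stimulation, opposite to most of the enzymes they carry, and neither passed the test. M6pr encodes the cation-dependent receptor and lies at chr6:122309010-122317677. It stood at 171, 164 and 174 FPKM in controls and 218, 200 and 182 FPKM in stimulated macrophages, and at 365, 349 and 371 against 463, 426 and 389 FPM. All stimulated libraries were above all controls on both scales, the only member for which that held. The log2 fold change was 0.24 ± 0.09 (SE, n = 3 per group; limma adjusted p = 0.464) in FPKM and 0.23 ± 0.08 (limma adjusted p = 0.159) in scaled fragments. Igf2r, the larger, cation-independent receptor, stood at 30.1, 27.4 and 34.3 FPKM in controls and 40.6, 32.5 and 34.8 FPKM after stimulation. Its groups overlapped at control replicate 3, with a log2 fold change of 0.23 in FPKM and 0.18 in scaled fragments (95% interval -0.01 to 0.37). On the reference transcript of Igf2r alone, which leaves out an unnamed transcript of 13.6 FPKM in stimulated replicate 1, the log2 fold change was 0.04. Summed, the receptors held 0.0643, 0.0602 and 0.0689% of the fragments in controls and 0.0803, 0.0727 and 0.0710% after stimulation. In FPKM the shares overlapped for membrane proteins (0.855% in control replicate 1, 0.874% in stimulated replicate 1), V-ATPase (0.298% in control replicate 2, 0.308% in stimulated replicate 1) and receptors.

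**Figure D4:**
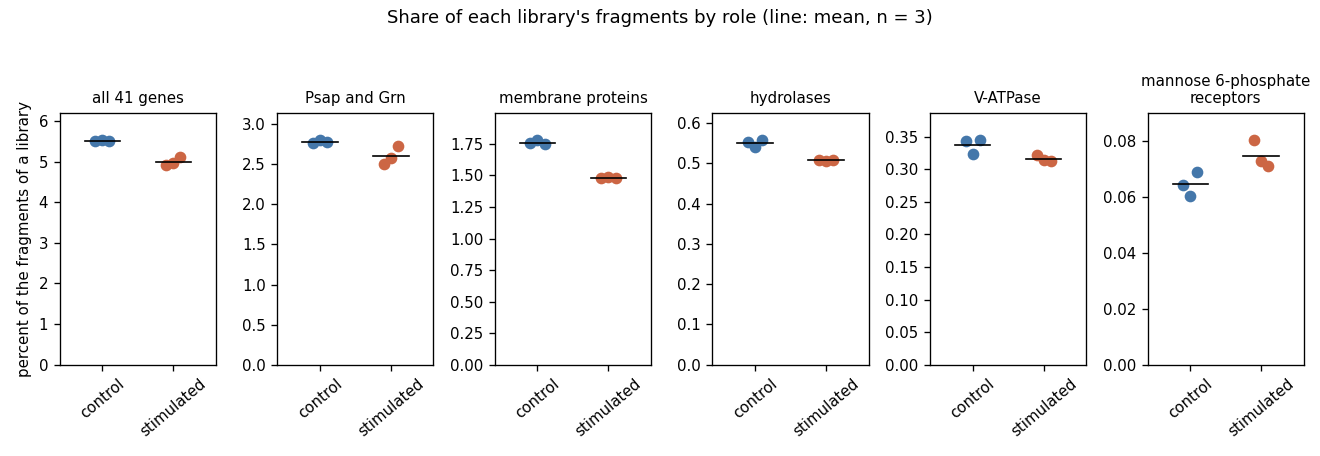
Percent of the fragments of each library held by all 41 genes and by 5 role groups, 1 point per library and a line at the mean of 3, with linear axes from 0 that differ between panels. Stimulated libraries lie below all controls in the panels for all genes, Psap and Grn, membrane proteins, hydrolases and V-ATPase, and above them for the receptors. The V-ATPase panel counts Atp6v0c as 0 and leaves out its overlapping pseudogene entry, Atp6v0c-ps2. With that entry counted, the V-ATPase groups would overlap.

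The transcription factors were low and varied between libraries. Tfeb stood at 25.2, 25.9 and 28.7 FPKM in controls and 27.3, 17.8 and 21.0 FPKM in stimulated macrophages, with a log2 fold change of -0.29 (95% interval -0.73 to 0.15; limma adjusted p = 0.695). Tfe3 stood at 52.5, 47.3 and 40.1 FPKM in controls and 41.3, 37.9 and 65.3 FPKM after stimulation, with a log2 fold change of 0.01 (95% interval -0.50 to 0.52). Tfe3 was the only member with an unnamed transcript in all 6 libraries, and its value in scaled fragments was -0.01. Among members with CACGTG in the window, 8 were lower and 5 higher, with a median log2 fold change of -0.03 in FPKM and -0.02 in scaled fragments. Among tested members with a window but without the motif, 17 were lower and 4 higher, with medians of -0.09 and -0.08. These counts are descriptions and were not tested.

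All 6 V1 genes of the V-ATPase had lower values after stimulation, with a median log2 fold change of -0.12 in FPKM and -0.13 in scaled fragments, while 3 of the 4 tested V0 genes had higher values, with medians of 0.05 and 0.06, and the other, Atp6v0a1, a lower one. Among the 6 tested pump subunits outside the members, the FPKM log2 fold change was -0.39 for Atp6v0d2, -0.08 for Tcirg1 and 0.17 for Atp6v0a2, all of V0, and 0.08 for Atp6v1g1, -0.10 for Atp6v1f and 2.18 for Atp6v1g2 (at most 4.17 FPKM, and 0 in control replicate 2), all of V1. None of the 12 tested members passed the threshold on either scale, and the difference between sectors was not tested. The V-ATPase genes together held 0.344, 0.324 and 0.345% of the fragments in controls and 0.322, 0.314 and 0.313% in stimulated macrophages. Atp6v0c counts as 0 in this share. Its overlapping pseudogene entry, Atp6v0c-ps2, is left out, at 979 FPM in control replicate 2 and 1027 FPM in stimulated replicate 1. With that entry counted, stimulated replicate 1 would not lie below control replicate 2.

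**Figure D5:**
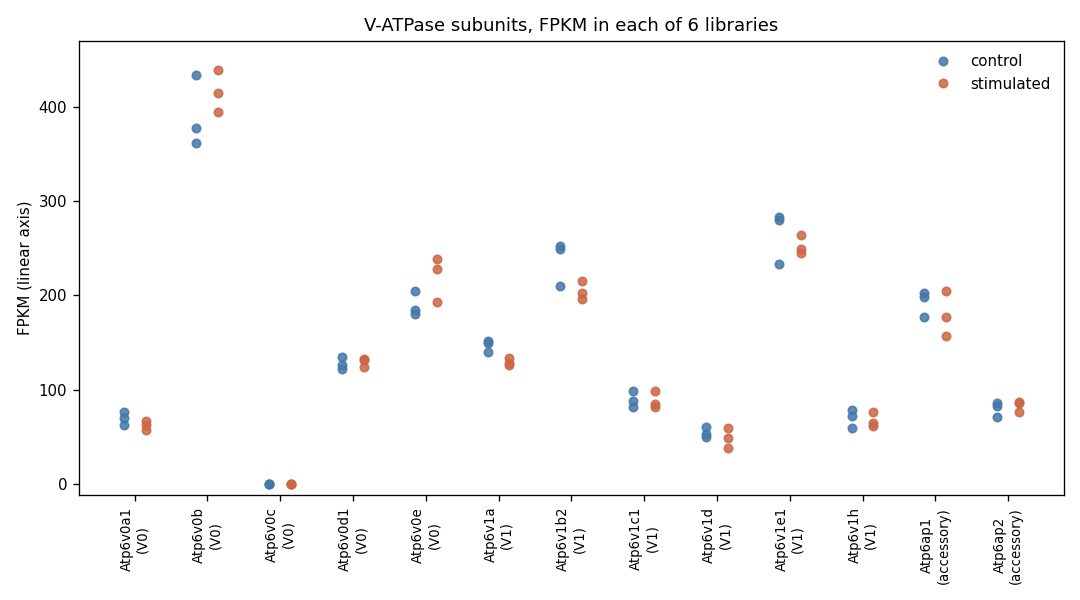
FPKM of the 13 V-ATPase genes in each of the 6 libraries on a linear axis, ordered by sector, with control libraries in blue and stimulated libraries in orange. Atp6v0b is the highest plotted at 362 to 438 FPKM, Atp6v0c is listed at 0 with its overlapping entry not plotted, and only Atp6v1a shows groups that do not overlap.

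Atp6v1b2 and Atp6v1a encode the subunits that form the ATP-binding head of V1. Atp6v1b2 stood at 249, 210 and 252 FPKM in controls and 202, 197 and 215 FPKM in stimulated macrophages, overlapping only through control replicate 2. Its log2 fold change was -0.21 on both scales (limma adjusted p = 0.542 in FPKM and 0.131 in scaled fragments), and in scaled fragments without control replicate 2 it was -0.30 and passed the threshold (limma adjusted p = 0.0334). Atp6v1a stood at 150, 152 and 140 FPKM in controls and 134, 126 and 128 FPKM after stimulation, without overlap, with a log2 fold change of -0.19 ± 0.08 (SE, n = 3 per group; limma adjusted p = 0.545) in FPKM and -0.19 (limma adjusted p = 0.189) in scaled fragments. On the reference transcript alone it stood at 95.3, 0 and 140 FPKM in controls and 134, 126 and 128 FPKM after stimulation. Control replicate 2 is thus listed at 0 there, with an unnamed transcript at 152 FPKM, and the direction turned, to a log2 fold change of 3.55 that depends on the pseudocount. Atp6v1e1, a stalk subunit and the most abundant V1 gene, stood at 280, 234 and 283 FPKM in controls and 250, 264 and 245 FPKM after stimulation. Atp6v1c1, another stalk subunit, stood at 98.0, 82.0 and 88.3 FPKM in controls and 84.4, 98.4 and 81.0 FPKM after stimulation. Both overlapped, with log2 fold changes of -0.06 and -0.03. For Atp6v1d and Atp6v1h the log2 fold changes in FPKM were -0.18 and -0.05.

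In the V0 sector Atp6v0b, a proteolipid subunit of the proton-carrying ring, was the highest of the pump members with a level of their own. It stood at 434, 362 and 378 FPKM in controls and 438, 414 and 394 FPKM in stimulated macrophages, a log2 fold change of 0.09 (95% interval -0.10 to 0.28). Atp6v0e stood at 180, 185 and 204 FPKM in controls and 238, 193 and 228 FPKM after stimulation, a log2 fold change of 0.21 (95% interval -0.02 to 0.44; limma adjusted p = 0.579). Atp6v0a1, a large membrane subunit, stood at 62.1, 76.1 and 69.99 FPKM in controls and 66.2, 62.8 and 57.6 FPKM after stimulation, a log2 fold change of -0.16. Groups overlapped for all of them, and for Atp6v0d1, whose log2 fold change was 0.02. The accessory genes Atp6ap1, at 203, 177 and 199 FPKM in controls and 204, 177 and 157 FPKM after stimulation, and Atp6ap2, at 82.3, 71.1 and 86.1 against 75.7, 86.1 and 86.9 FPKM, also overlapped, with log2 fold changes of -0.11 and 0.06.

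Atp6v0c, which encodes the main proteolipid of the ring, was listed at 0 in all 6 libraries. The pseudogene entry Atp6v0c-ps2 overlaps it by 5530 bases and was listed at 1008, 1019 and 1005 FPKM in controls and 1073, 1059 and 1049 FPKM in stimulated macrophages. The reads of these overlapping entries cannot be told apart here, so no level is given for Atp6v0c alone. The sum had a log2 fold change of 0.07 (95% interval -0.03 to 0.16; limma adjusted p = 0.656), and its stimulated libraries were all above its controls.

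Other lysosomal genes were followed in 5 lists that hold 123 genes outside the members, of which 113 were tested. In FPKM 0 of them passed the threshold in limma, with 14 at an unadjusted p under 0.05, against 9.35% of all tested genes. The median of the 113 was -0.03 on the log2 scale, and 60 had lower and 53 higher values. In scaled fragments 3 passed as higher, against 1.73% of all tested genes, and 1 as lower, against 1.0%. On that scale 25 of the 113 had an unadjusted p under 0.05 in limma, against 11.9% of all tested genes. Acp2, lysosomal acid phosphatase, rose from 275, 236 and 279 FPM in controls to 411, 413 and 380 (log2 fold change 0.61, limma adjusted p = 9.6e-06). Sppl2a, an intramembrane protease of late endosomes and lysosomes, rose from 213, 201 and 202 to 252, 298 and 248 FPM (0.37 on the log2 scale, limma adjusted p = 0.0366). Sqstm1, the autophagy receptor p62, rose from 1170, 1237 and 1316 to 1542, 1437 and 1361 FPM (0.22 on the log2 scale, limma adjusted p = 0.00806). Atp6v0d2, a V0 subunit typical of osteoclasts and some macrophages, fell from 691, 665 and 707 to 538, 527 and 511 FPM (-0.39 on the log2 scale, limma adjusted p = 0.000112), unlike Atp6v0d1, its widely expressed counterpart, at 0.01. For all 4 the groups did not overlap on either scale.

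Of the lists, none of the 28 tested other hydrolases and activators but Acp2 passed in scaled fragments, and none of the 37 tested membrane proteins and transporters but Sppl2a. In the list of sorting and mannose 6-phosphate modification, 0 of 21 tested genes passed in limma on either scale, with 2 at an unadjusted p under 0.05 in FPKM and 4 in scaled fragments, against 9.35% and 11.9% of all tested genes. Of the 6 tested other pump subunits 1 passed, Atp6v0d2, and of the 21 tested genes of the MiT family and lysosomal nutrient sensing 1 passed, Sqstm1.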

How the data were processed

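RNA-seq libraries (TruSeq Stranded mRNA, paired reads of 100 bp) of 3 control and 3 stimulated cultures were used, 1 file each. Per the labels and the methods, the authors mapped reads on mm10 by TopHat with Bowtie, then quantified each library by Cufflinks; versions are not given in the sources used here. The deposited FPKM are Cufflinks values per transcript, for reference transcripts and for transcripts assembled in that library alone. The deposited coverage, a signal per transcript, is the depth listed beside each FPKM. Reference transcripts held 80.0 to 84.2% of the FPKM.

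FPKM were summed per gene symbol, with an unnamed assembled transcript added to the named gene of the same Cufflinks gene that it overlapped most; sums of named lines only are the alternative "reference transcripts only". Fragments were estimated as coverage times the length, less an offset of 205 to 217 bases chosen per library so that most low values came out whole (93.6 to 94.4% within 0.1), divided by 100. The 10398 genes whose mean reached 1 FPKM entered limma 3.58.1 in R 4.3.3 (trend and robust) on log2(FPKM + 0.1) and on log2(scaled fragments + 1), two-sided, and p-values were adjusted by Benjamini-Hochberg, with 0.05 as the threshold. Fold changes are on these scales, which understate changes of low genes. Intervals are 95% and rest on 3 libraries per group.

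The members and lists were chosen with earlier results of these data known. Values per library are given for members past the threshold on either scale, for the largest positive and negative change in each role group of 3 or more, for the 2 most abundant of each role, and for Tfeb, Tfe3, Lamp1, Gpnmb, M6pr, Igf2r and Gaa; Atp6v1a was added after its values were seen. Alternatives changed the pseudocount, filter, scaling, moderation, weights, status, transcripts, unit and replicate block, or left out each library. Those added after seeing the data were Atp6v0c with Atp6v0c-ps2, and the block and left-out libraries in scaled fragments. Starts in the files had 1 added. Fragments were also simulated at the mean level of each gene and the depth of these libraries, with the same spread beyond counting set for every gene. The fit of 10398 genes then recovered 41% of genes changed by 0.5 on the log2 scale in FPKM and 82% in scaled fragments, all with at least 100 fragments. Of those changed by 1, 96 and 100% were recovered, and 7 unchanged genes were called on each scale. Simulated FPKM were the drawn fragments times a constant per gene, so they lack the spread that unnamed transcripts bring. The FPKM rates thus do not describe the fit of the real FPKM. No change under 0.5 was simulated, so the rates on both scales do not cover the smaller changes of the members called. Python 3.11.15, pandas 2.3.3, numpy 2.4.6 and matplotlib 3.10.9 were used.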

Additional observations from a re-analysis of the deposited data

Results flagged for a closer look

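In 9 members the unnamed transcripts assembled at the gene, summed, reached a higher FPKM in a stimulated library than in any control library. These lines carry no gene name and no test was run on them. For Neu1 the highest stimulated value was 36.4 FPKM, against 6.38 FPKM in the highest control. For Atp6v1e1 it was 116 FPKM against 25.7, for Tfe3 49.7 against 32.0, for Naglu 29.4 against 20.6 and for Atp6v1h 52.2 against 47.7 FPKM. In Gaa (8.69 FPKM), Manba (11.8 FPKM), Igf2r (13.6 FPKM) and Atp6v0a1 (12.9 FPKM) no control library had such a line. At the other 13 of the 22 members with unnamed lines the highest sum was in a control, up to 4531 FPKM for Gpnmb and 416 FPKM for Grn. An unnamed line was present at 22 of the 41 members in at least 1 library, and at 1 member, Tfe3, in all 6.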

How the results depend on the processing

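Over all genes 33 were called higher and 8 lower in FPKM. The counts were 180 and 104 in scaled fragments, 15 and 4 with reference transcripts only, 14 and 5 without trend or robust moderation, and 17 and 1 with the replicate block; 5 were called lower after quantile normalization, and 12 to 26 higher and 0 to 6 lower with 1 library left out. No member was called in FPKM under any alternative, and 3 were called lower in scaled fragments. Of the other lysosomal genes 3 were called higher and 1 lower in scaled fragments, and 1 lower without trend or robust. Same-numbered libraries deviated together at correlations of -0.137, -0.0232 and -0.193, no library correlated best with its own number, and the numbers were not read as pairs. Across numbers the highest correlations were 0.27, for control replicate 1 with stimulated replicate 3, and 0.164, for control replicate 3 with stimulated replicate 2. No fit used such pairs. The replicate block follows the replicate numbers, which are not known to pair the libraries, so calls under it add no support. With it Gpnmb, Lgmn and Man2b1 were called in scaled fragments, and so was Psap (-0.105 on the log2 scale, limma adjusted p = 0.0222).

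The hydrolase median was -0.116 after quantile normalization. The median of membrane proteins and receptors was -0.039, and was -0.076 with equal totals, -0.082 with quantiles, 0.088 with reference transcripts only, and -0.07 to 0.024 with 1 library left out. The members' share of FPKM was 0.605 percentage points lower in stimulated macrophages, and 0.137 lower with reference transcripts only.

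Of 40 tested members the direction turned for 10 with reference transcripts only, 2 in scaled fragments, 2 with equal totals, 2 with quantiles, 3 with array weights, and 18 with any 1 library left out. Among those described by library it turned with reference transcripts only for Hexa (0.24), Galns (0.39), Grn (0.38), Mcoln1 (0.14), Gpnmb (0.25), Tfeb (0.22), Tfe3 (-0.46), Atp6v1a (3.55) and Atp6v1c1 (0.11), and for Tpp1 (0.15), in scaled fragments for Grn (0.01) and Tfe3 (-0.01), and for Tfe3 with equal totals (-0.024), quantiles (-0.016) or array weights (-0.004). The cause was not tested. With 1 library left out they also turned for Gaa (-0.066 to 0.096), Hexa (-0.071 to 0.001), Grn (-0.048 to 0.005), Mcoln1 (-0.104 to 0.099), Tfe3 (-0.228 to 0.165), Atp6v1c1 (-0.109 to 0.043) and Atp6ap2 (-0.025 to 0.12). Keeping only lines with status OK gave -10.7 for Gpnmb, since its lines are removed in some libraries. Of 40 tested members 18 kept their direction under all 19 alternatives. Tested by line, 0 of 49 member transcripts passed in limma, the lowest adjusted p being 0.558.

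By estimated depth, 15 tested members had a mean of under 100 fragments per library. Whether depth limited the calls was not tested.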
